A study of Oryza sativa with 24 samples.

Results

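The change in expression that rice seedlings made over 6 h at 4 °C was compared between 3 indica accessions, 9311, ZS97 and MH63, and 4 accessions of the japonica side, IRAT109, Geng87-304, Youmangzaogeng and Muguanuo. For each accession the change was log2(value + 32) on the array taken at 6 h minus the same quantity on the array taken before cold, so that each accession served as its own baseline. The series has no array of seedlings kept warm for 6 h. Cold and time of day can therefore not be told apart in these changes. These 7 of the 8 accessions gave 14 of the 24 arrays of the series. The groups were indica at 6 h (3 arrays) and japonica-side at 6 h (4 arrays), set against indica before cold (3 arrays) and japonica-side before cold (4 arrays). All were unmodified accessions sampled as shoot and leaf tissue at the 4-leaf stage, and the cold chamber ran 14 h of light and 10 h of darkness. The labels give the accession names and not the subspecies. 9311, ZS97 (Zhenshan 97) and MH63 (Minghui 63) are widely used indica lines, and IRAT109 is an upland japonica. The placing of Geng87-304, Youmangzaogeng and Muguanuo on the japonica side was taken as given and was not tested. Lixingeng was left out because of its array before cold. That array correlated at 0.992 (Spearman, all probe sets) with the MH63 array at 24 h, the highest of the 252 pairs of arrays of different accessions, the next being 0.979.

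Indica and japonica are the main subspecies of cultivated rice, and japonica seedlings are known as the more cold-tolerant. Within hours of a chill, calcium enters the cytosol and calmodulin-like proteins bind it, while calcium pumps remove it. DREB1 (CBF) transcription factors are induced in parallel and act on cold-responsive promoters, and MYB, NAC and WRKY factors, jasmonate repressors (JAZ) and sugar signals such as trehalose 6-phosphate take part downstream.

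The values were probe set intensities, with array medians between 41.7 and 46.6. A probe set was taken as above background on an array where its value exceeded all 10 probe sets of the fungus Magnaporthe, which serve as controls. That level lay between 66.7 and 137 and was highest on the 9311 array at 6 h, where 20.9% of probe sets were above it. The share of probe sets above background before cold averaged 28.2% ± 0.9 in indica (SD, n = 3) and 30.9% ± 1.8 in japonica-side accessions (SD, n = 4), and the sides did not overlap (exact two-sided permutation test, p = 0.0571, the smallest that 35 assignments allow; 0.457 after Benjamini-Hochberg adjustment over 8 array-wide measures). Before cold, correlations across probe sets lay between 0.951 and 0.971 for pairs of indica accessions and between 0.912 and 0.974 for pairs on the japonica side, against 0.905 to 0.942 for pairs drawn from both. The leaf markers CAB2R, RBCS and RCA were above background on both sides, as were 3 of 8 root markers, and no marker of either list passed the test of the difference (limma; 1 leaf marker, RBCS, and no root marker at an unadjusted p under 0.05). Of the 8 root markers, 5 were never above background in indica and 3 on the japonica side. Their mean 6 h change lay between -0.14 and -0.06 in the indica accessions. It was -0.76 in Geng87-304, -0.36 in Youmangzaogeng, -0.01 in Muguanuo and 0.05 in IRAT109. In whole tissue, fewer cells of a type and less RNA per cell cannot be told apart.

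Both sides made a broad response, and most members of the smaller indica lists were shared with the japonica side. In indica 1034 probe sets rose (1.81% of the 57258 tested) and 3032 fell (5.3%). On the japonica side, with 1 accession more, 1936 rose (3.38%) and 4048 fell (7.07%; limma, adjusted p under 0.05). Of the probe sets that rose, 787 did so on both sides, which is 76.1% of the indica list and 40.7% of the japonica-side list. Of those that fell, 2221 were shared, 73.3% and 54.9% of the lists. No probe set rose in indica and fell on the japonica side, and 3 fell in indica and rose on the japonica side. The split into probe sets that rose and fell depended on scaling in indica, where it was 1447 and 2397 after quantile normalization. The indica counts also depended on which accessions were present: leaving out 9311, ZS97 or MH63 gave 2470, 2816 or 2885 calls in place of 4066.

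Several measures describe the overall size and likeness of the response. Across the 18901 probe sets above background on at least 1 array of each side, the mean indica and japonica-side changes had a Pearson correlation of 0.885, given as a description because the probe sets share arrays. The SD of the changes over all probe sets averaged 0.26 ± 0.02 in indica (n = 3) and 0.27 ± 0.02 in japonica-side accessions (n = 4; exact two-sided permutation test, p = 0.686, where 0.0571 is the smallest possible). Between single accessions, changes correlated at 0.702 to 0.743 for indica pairs and 0.740 to 0.839 for japonica-side pairs, against 0.677 to 0.803 for pairs drawn from both. The changes of indica accessions were thus no more alike than those of many pairs across the sides. Counts of at least 2-fold changes, with no test, were taken over the probe sets above background on either array of the accession. These numbered 16699 to 17970 in indica and 18433 to 20721 on the japonica side. At least 2-fold rises numbered 254 in 9311, 265 in ZS97 and 273 in MH63, against 313 in Youmangzaogeng, 322 in Geng87-304, 330 in IRAT109 and 365 in Muguanuo. Falls numbered 386 in 9311, 334 in ZS97 and 219 in MH63, against 306 in Youmangzaogeng, 182 in Geng87-304, 216 in IRAT109 and 430 in Muguanuo. As a share of those probe sets, rises made up 1.47% to 1.53% in indica and 1.64% to 1.76% on the japonica side. Rises were lower in all 3 indica accessions by count and by share, while falls overlapped between the sides.

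**Figure D1:**
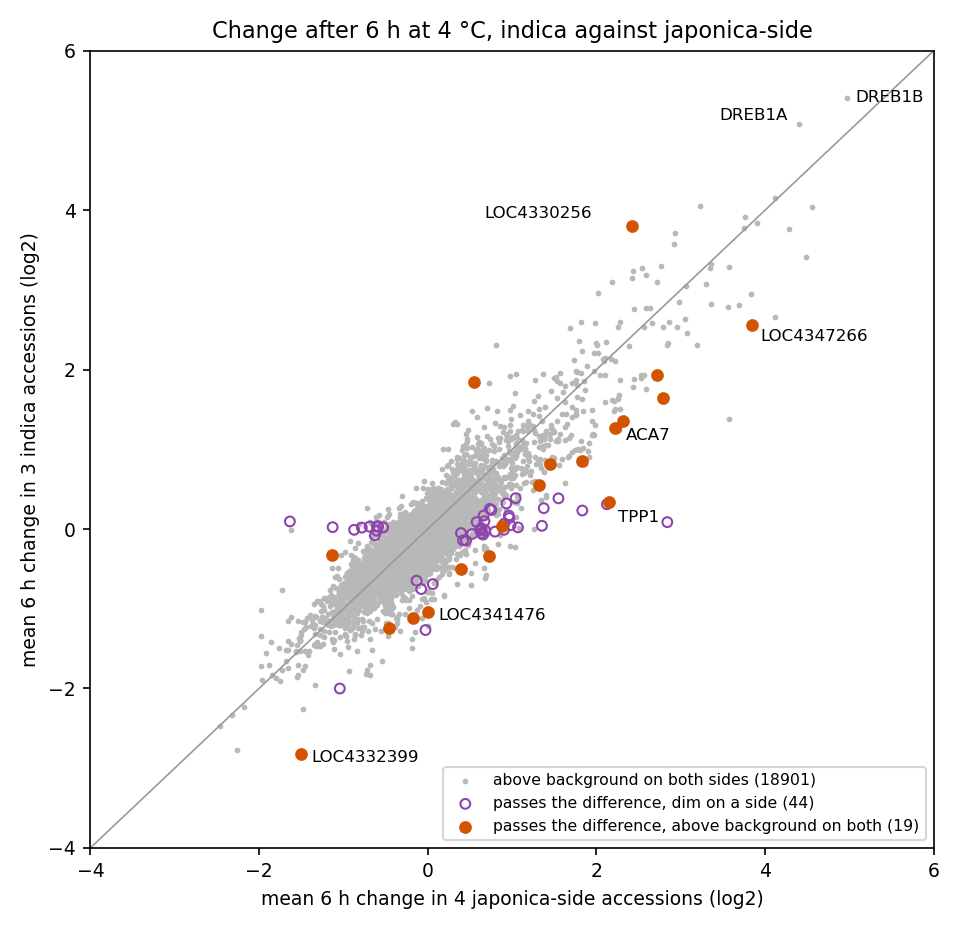
Mean log2 change after 6 h at 4 °C in the 3 indica accessions (vertical axis) against that in the 4 japonica-side accessions (horizontal axis), with the line of equal change. Grey points are the 18901 probe sets above background on both sides, filled circles the 19 of them that passed the test of the difference, and open circles the 44 that passed but were never above background on at least 1 side, many of which lie near 0 on the indica axis.

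The change itself differed between the sides for 63 of 57258 probe sets (0.11%; limma with accession as a block, adjusted p under 0.05). The indica change was the lower in 50 (0.0873%) and the higher in 13 (0.0227%), and 18 differed at least 2-fold. At an unadjusted p under 0.05 the counts were 2107 lower (3.68%) and 1339 higher (2.34%) in indica. The accession changes of the sides did not overlap in 6.43% of all probe sets. They did not overlap in any of the 63, which choosing these by their difference relative to the spread nearly fixes. The count rested on single accessions: it was 11 without 9311, 31 without Youmangzaogeng and 132 without IRAT109. The p-values measure only the spread between these samples, since the labels do not say whether accessions or arrays came from separate plantings.

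By their behaviour on each side, 39 of the 63 passed on the japonica side alone, 28 of them rising and 11 falling. On both sides 17 changed in the same direction, of which 12 changed more on the japonica side and 5 more in indica. In indica alone 6 changed, all falling, and 1 changed in opposite directions. The annotation gave a single gene for 33 of the 63, covering 31 genes, of which 4 have a name: TPP1, NAC45, ACA7 and CML14. All 4 rose on the japonica side and had the lower change in indica.

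TPP1 encodes a trehalose-6-phosphate phosphatase, which converts trehalose 6-phosphate to trehalose, and its overexpression in rice is known to raise tolerance to cold and salt. At 6 h it read 137 in 9311, 136 in ZS97 and 220 in MH63, against 116, 83.6 and 176 before cold. On the japonica side it read 499 in IRAT109, 418 in Geng87-304, 627 in Youmangzaogeng and 601 in Muguanuo at 6 h, against 57.9, 84.7, 83.3 and 180 before cold. Every japonica-side array at 6 h was above every indica array, while the values before cold overlapped. The log2 changes were 0.19, 0.54 and 0.28 in indica and 2.56, 1.95, 2.52 and 1.58 on the japonica side. TPP1 thus rose 4.44-fold on the japonica side (2.15 ± 0.47, SD, n = 4; limma, adjusted p = 7.71e-07), and the indica change was 0.34 ± 0.18 (SD, n = 3; limma, adjusted p = 0.298). The difference was -1.82 (95% interval -2.27 to -1.36; limma, adjusted p = 0.00711), and without 9311 it was -1.74 (adjusted p = 0.0518). With Lixingeng on the japonica side it was -1.43 (adjusted p = 0.885). Of the 6 indica arrays 4 were above background. Before cold the readings of IRAT109, Geng87-304 and Youmangzaogeng were below background (80.9, 95.7 and 99.9), so the 4.44-fold rise rests in part on dim readings.

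Of the 9 genes matched to the list of trehalose phosphate synthases and phosphatases, TPP1 alone passed the test of the difference. The list's median difference was -0.04, beside -0.02 over all 17905 genes. TPP9, another phosphatase of the family, had changes of -0.40 ± 0.35 in indica and -0.08 ± 0.09 on the japonica side, and its difference of -0.32 did not pass (limma, adjusted p = 0.822). Of the 9, 5 were never above background on any indica array, and 5 on any japonica-side array.

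NAC45, a transcription factor of the NAC family, changed by 0.12, 0.06 and -0.06 in 9311, ZS97 and MH63. On the japonica side the changes were 1.86 in IRAT109, 1.12 in Geng87-304, 1.28 in Youmangzaogeng and 1.15 in Muguanuo. All 4 japonica-side changes were well above the 3 indica changes, which lay about 0. The difference was -1.31 (95% interval -1.65 to -0.98; limma, adjusted p = 0.00734) and -1.35 without 9311 (adjusted p = 0.0503). NAC45 read 29.7 to 50.5 on the indica arrays at 6 h and was not above background on any of the 6 indica arrays, so the indica change is that of a signal below background. At 6 h it was above background on all 4 japonica-side arrays, at 405, 135, 259 and 109.

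NAC067, another NAC factor, rose on both sides and did not pass the test of the difference. Its changes were 1.67, 0.87 and 1.18 in indica (1.24 ± 0.40) and 2.02, 2.60, 2.14 and 2.33 on the japonica side (2.27 ± 0.25), with no overlap. The difference was -1.03 (95% interval -1.45 to -0.62; limma, adjusted p = 0.0742). It was above background on all 14 arrays. Among the 8 measured NAC genes 3 rose in indica, and on the japonica side 4 rose and 1 fell. Over all genes 2.38% rose and 11.4% fell in indica, and 4.95% rose and 14.3% fell on the japonica side, shares against which the counts of the other lists also stand. The member that fell, NAC5, had the higher change in indica. It changed by -0.23, -0.09 and -0.22 in indica and by -0.24, -0.54, -1.45 and -1.09 on the japonica side (difference 0.65; limma, adjusted p = 0.656). The median difference of the list was -0.22, beside -0.02 over all genes, and 1 of the 8, NAC45, passed.

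ACA7 encodes a calcium pump of the autoinhibited Ca2+-ATPase type, which moves calcium out of the cytosol. It rose in every accession, by 1.29 in 9311, 1.10 in ZS97 and 1.40 in MH63, and by 2.30, 2.37, 2.31 and 1.91 in IRAT109, Geng87-304, Youmangzaogeng and Muguanuo. The groups did not overlap, as for all probe sets that passed, and Muguanuo stood nearest to indica. The mean changes were 1.26 ± 0.15 in indica (limma, adjusted p = 3.61e-06) and 2.22 ± 0.21 on the japonica side (limma, adjusted p = 7.02e-09). The difference was -0.96 (95% interval -1.22 to -0.70; limma, adjusted p = 0.0097), and without 9311 it was -0.97 (adjusted p = 0.0547). With Lixingeng, whose array before cold is the doubtful one, on the japonica side it was -0.24 (adjusted p = 0.998), and in a fit of 20 arrays the adjusted p was 0.337. Before cold ACA7 was not above background on any array. At 6 h it was above background on 1 of 3 indica arrays and on all 4 japonica-side arrays. In the other indica accessions the rise thus lies between readings below background. With the background level in place of the dim readings, the rise was at least 1.09-fold in indica and at least 2.32-fold on the japonica side.

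CML14, a calmodulin-like calcium sensor, rose by 0.26, 0.55 and 0.35 in indica and by 1.09, 0.97, 1.17 and 0.94 on the japonica side. The groups did not overlap, as for all probe sets that passed. The difference was -0.65 (95% interval -0.86 to -0.45; limma, adjusted p = 0.0196), and the call was lost without 9311 (-0.59, adjusted p = 0.125), Youmangzaogeng (-0.61, adjusted p = 0.0864) or MH63 (-0.63, adjusted p = 0.0691). CML14 was not above background on any indica array, where it read 20.6 to 38.6 at 6 h, against 68.9 to 327 on the japonica side.

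**Figure D2:**
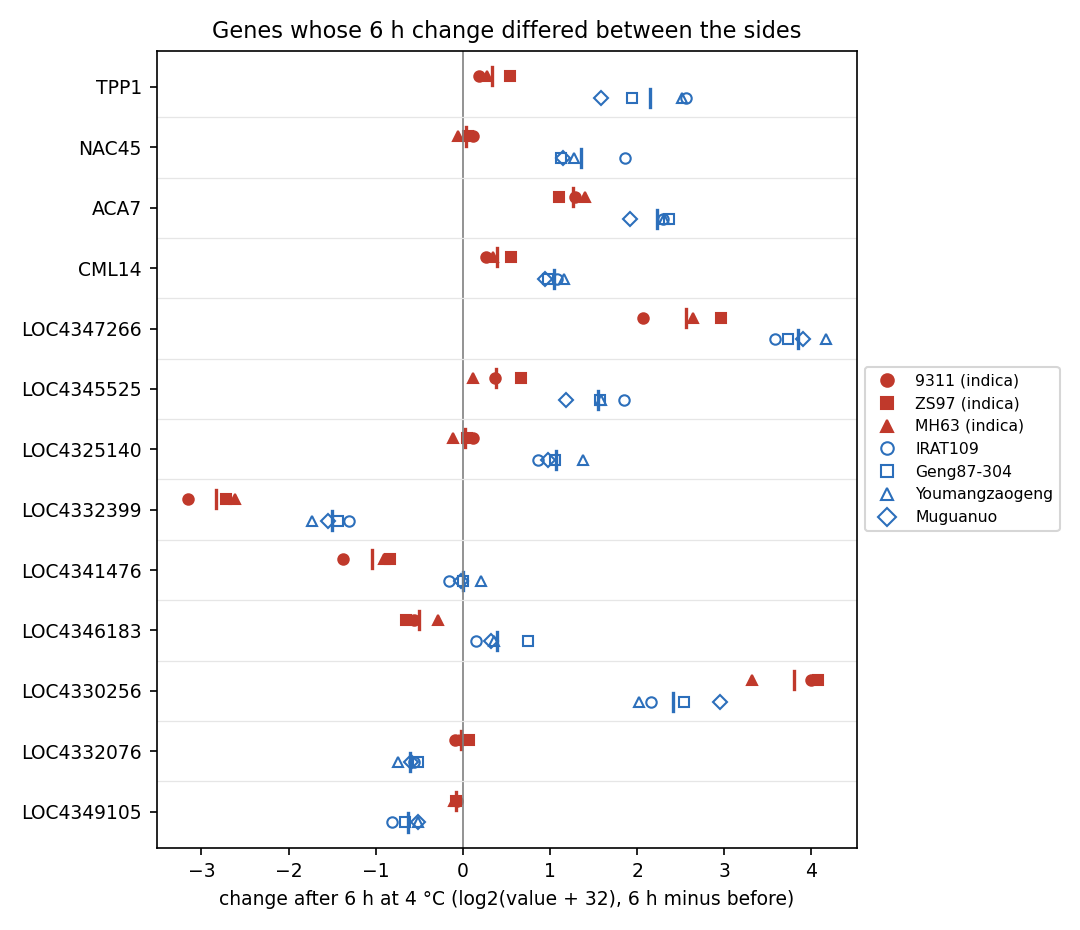
Log2 change after 6 h at 4 °C for 13 genes that passed the test of the difference, with indica accessions (filled) above japonica-side accessions (open) in each row and a bar at each side's mean. In every row the accession values of the sides do not overlap, which the choice of these genes required or nearly fixed. NAC45 and LOC4325140 lie near 0 in indica (means 0.04 and 0.02, against 1.35 and 1.07 on the japonica side), and LOC4330256 rose more in indica. With the background level in place of dim readings, LOC4325140 rose at least 1.01-fold on the japonica side.

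By the probe set that stands for each gene, 23 of 17905 genes passed, and 3 of them had the higher change in indica. All 3 are known here by a locus identifier only. LOC4333139, named after its values were seen, also passed with the higher change in indica on 2 probe sets that do not stand for it (0.86 and 0.72; limma, adjusted p = 0.00252 and 0.00679). It fell on the japonica side on both and was not above background on any indica array. The probe set that stands for LOC4333139 was not above background on any array of either side. Its difference was 0.05 (limma, adjusted p = 0.993), with overlap between the sides. LOC4330256 rose strongly on both sides. At 6 h it read 1655, 2365 and 1567 in 9311, ZS97 and MH63, against 74, 110 and 128 before cold. On the japonica side it read 527, 975, 817 and 875 at 6 h, against 93.5, 141, 177 and 85.2 before cold. The indica arrays at 6 h were all above the japonica-side arrays, and the values before cold overlapped. The mean changes were 3.80 ± 0.42 in indica and 2.42 ± 0.42 on the japonica side, with a difference of 1.38 (95% interval 0.88 to 1.88; limma, adjusted p = 0.0485). The call held in 4 of 18 alternatives. It was lost without 9311 (1.28, adjusted p = 0.242), IRAT109 (1.29, adjusted p = 0.0771), ZS97 (1.24, adjusted p = 0.173), Geng87-304 (1.42, adjusted p = 0.105) or Youmangzaogeng (1.25, adjusted p = 0.164), and also with offset 16, equal medians, the filter on dim probe sets, array weights and no variance trend (adjusted p between 0.0616 and 0.143).

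LOC4332076 and LOC4349105 had differences of 0.59 and 0.55 (limma, adjusted p = 0.0173 and 0.0455). Both fell on the japonica side, by 0.61 and 0.63, and had changes of -0.02 and -0.08 in indica, where neither was above background on any array. On the japonica side LOC4332076 was above background on 2 of 4 arrays before cold and on none at 6 h, so its fall there was at least 1.09-fold. Before cold both genes were also lower in indica, by 1.17 and 2.13 on the log2 scale (limma, adjusted p = 0.000274 and 0.00424). Their calls were lost without 9311, ZS97, Youmangzaogeng or MH63, and that of LOC4349105 also without Geng87-304, with adjusted p between 0.0503 and 0.214. That of LOC4349105 was further lost with offset 16, quantile normalization and equal medians, and its difference was 0.31 with Lixingeng on the japonica side.

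Among the locus-only genes with the lower change in indica, LOC4332399 fell on both sides. At 6 h it read 61.9, 75.8 and 61.7 in 9311, ZS97 and MH63, against 801, 676 and 544 before cold. On the japonica side it read 46.2, 57.5, 54.5 and 42 at 6 h, against 161, 209, 255 and 184 before cold. The sides therefore differed before cold, where every indica value was above every japonica-side value, and both were below background at 6 h. The changes were -2.83 ± 0.28 in indica and -1.50 ± 0.18 on the japonica side, a difference of -1.33 (95% interval -1.64 to -1.01; limma, adjusted p = 0.00551) that still passed with any 1 accession left out. Bounded by the background at 6 h, the fall was at least 5.16-fold in indica and at least 2.04-fold on the japonica side.

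LOC4347266 was below background on all 7 arrays before cold and rose by 2.06, 2.97 and 2.64 in indica and by 3.58, 3.73, 4.16 and 3.90 on the japonica side. The difference was -1.29 (95% interval -1.70 to -0.87; limma, adjusted p = 0.0246). Without 9311 it was -1.04 (adjusted p = 0.0684), and the call was lost with 4 other accessions left out, with values of -1.33 without MH63, -1.32 without Geng87-304, -1.27 without Muguanuo and -1.18 without Youmangzaogeng. With Lixingeng on the japonica side it was -0.49 (adjusted p = 0.998). The rise was at least 1.94-fold in indica and at least 5.34-fold on the japonica side.

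LOC4341476 was above background on all 14 arrays and fell in indica alone. It read 238, 432 and 491 at 6 h in 9311, ZS97 and MH63, against 667, 797 and 950 before cold. On the japonica side it read 849, 552, 774 and 703 at 6 h, against 954, 554, 665 and 715 before cold. The indica changes were -1.37, -0.84 and -0.91, while those of the japonica side lay between -0.16 and 0.21. The difference was -1.04 (95% interval -1.37 to -0.72; limma, adjusted p = 0.0246), and the call was lost without 9311 (-0.88, adjusted p = 0.0824), Geng87-304 (-1.05, adjusted p = 0.0734) or Youmangzaogeng (-0.98, adjusted p = 0.0944).

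LOC4345525 and LOC4325140 rose on the japonica side, by 1.55 ± 0.28 and 1.07 ± 0.22, and had changes of 0.38 ± 0.27 and 0.02 ± 0.12 in indica, where neither was above background. On the japonica side LOC4325140 was not above background before cold and was so on 2 of 4 arrays at 6 h. Bounded by the background, its rise there was at least 1.01-fold. The differences were -1.17 for LOC4345525 and -1.05 for LOC4325140 (limma, adjusted p = 0.0136 and 0.00551). That of LOC4345525 was lost without 9311 (-1.16, adjusted p = 0.0808) or Youmangzaogeng (-1.15, adjusted p = 0.0811). LOC4346183 was the gene with opposite changes that also passed the test of the difference. It fell by 0.56, 0.65 and 0.29 in 9311, ZS97 and MH63 and rose by 0.15, 0.75, 0.35 and 0.32 in IRAT109, Geng87-304, Youmangzaogeng and Muguanuo (difference -0.89; limma, adjusted p = 0.0309). It was above background on 2 of 6 indica arrays, both of ZS97, and on 4 of 8 japonica-side arrays. The readings of 9311, MH63 and IRAT109 were below background at both times. The call for LOC4346183 was lost without 9311, ZS97, Youmangzaogeng or Muguanuo (adjusted p between 0.0537 and 0.177), and with offset 64, equal medians or the filter on dim probe sets (0.0502 to 0.0776). Its other probe set, above background on no array, had a difference of 0.02.

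A single probe set of LOC4336629 had the largest difference of all, and was picked out after its values were seen. It changed by 0.05, 0.08 and 0.13 in indica and by 2.91, 2.45, 2.76 and 3.24 on the japonica side (difference -2.75; limma, adjusted p = 1.62e-05). It was not above background on any indica array. The gene's other probe set was not above background on any array of either side, and its difference was -0.27 (limma, adjusted p = 0.284), with the same sign and no overlap.

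The arrays taken at 24 h give a later view of the same genes, without MH63, whose 24 h array is the other of the highly correlated pair. They share the before arrays with the 6 h changes, so the order of the sides at 24 h is a description. TPP1 had risen in both remaining indica accessions by 24 h, by 1.64 in 9311 and 3.17 in ZS97, against 4.07 in IRAT109, 3.61 in Geng87-304, 3.95 in Youmangzaogeng and 3.04 in Muguanuo. ZS97 was thus above Muguanuo, and 9311 stayed below all others. NAC45 had changes of 0.83 and 0.77 in 9311 and ZS97 at 24 h, against 3.63, 2.29, 2.86 and 2.75. ACA7 had changes of 3.19 and 3.60, against 4.83, 3.77, 4.08 and 4.41. Neither overlapped. LOC4330256 still had the larger changes in indica, 3.90 and 3.72 against 3.10, 2.13, 1.82 and 2.93. LOC4341476, which fell in indica at 6 h, had changes of -0.22 and 0.49 at 24 h, against 0.46 to 0.87 on the japonica side. LOC4347266 had the reverse order at 24 h, with changes of 3.21 and 4.01 in 9311 and ZS97 against 2.50, 2.15, 2.14 and 3.01. Over the 63 probe sets the 24 h means of the sides were in the same order in 61, and in 55 the accession values did not overlap. The shared before arrays and the choice of these probe sets at 6 h favour the same order. No share over all probe sets was taken at 24 h, so the counts do not show that the differences persisted.

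**Figure D3:**
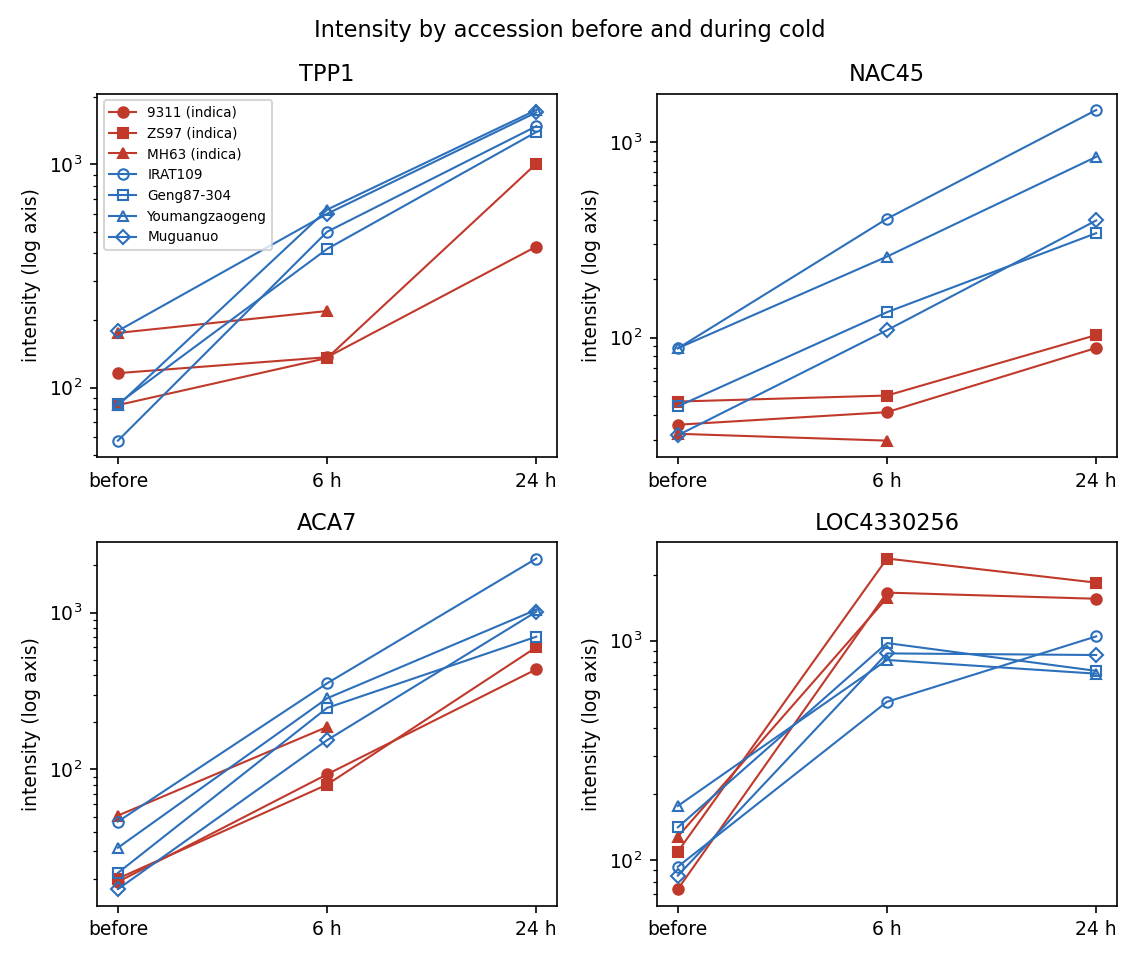
Intensity (log axis) before cold and after 6 h and 24 h at 4 °C for TPP1, NAC45, ACA7 and LOC4330256, with 1 line per accession, indica filled and japonica-side open. MH63 has no point at 24 h. The TPP1 line of 9311 is nearly flat to 6 h (137) and that of ZS97 rises somewhat (to 136). They reach 428 and 1008 at 24 h.

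Of the 5 measured DREB1 factors, which carry the best known branch of the cold response, 4 rose on both sides, and none passed the test of the difference (limma; 1, DREB1G, was higher in indica at an unadjusted p under 0.05). DREB1A changed by 5.81, 5.51 and 3.92 in 9311, ZS97 and MH63 and by 3.84, 4.14, 3.92 and 5.72 in IRAT109, Geng87-304, Youmangzaogeng and Muguanuo. The sides overlapped widely. Its levels at 6 h lay between 3404 and 4128 in indica and between 3425 and 4602 on the japonica side, a far narrower spread than before cold, where they lay between 37.1 and 195 and between 56.1 and 274. The accessions with the lowest levels before cold, 9311, Muguanuo and ZS97, thus had the largest changes. The difference was 0.68 (95% interval -0.35 to 1.70; limma, adjusted p = 0.94).

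DREB1B changed by 5.40 ± 0.67 in indica and 4.97 ± 0.87 on the japonica side, with a difference of 0.43 (95% interval -0.44 to 1.31; limma, adjusted p = 0.97). DREB1G changed by 3.30 ± 0.38 and 2.76 ± 0.44, with a difference of 0.54 (95% interval 0.05 to 1.03; limma, adjusted p = 0.78). DREB1E rose by 0.36 ± 0.10 and 0.43 ± 0.21, with a difference of -0.07 (95% interval -0.32 to 0.18). DREB1C had changes of -0.02 ± 0.12 in indica and 0.05 ± 0.23 on the japonica side and was never above background. The upper ends of the intervals for DREB1A, DREB1B and DREB1G are above 1, so a change at least 2-fold larger in indica is within each of them. DREB2B, a related factor of the drought and heat branch, rose by 0.72 ± 0.03 and 1.00 ± 0.08, with no overlap between the sides and a difference of -0.28 that did not pass (limma, adjusted p = 0.601).

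MYB2 and MYB4, cold-responsive transcription factors, rose on both sides. MYB2 changed by 2.84, 2.95 and 3.07 in indica and by 3.09, 4.26, 3.86 and 4.12 on the japonica side. IRAT109 lay beside the indica accessions and the other japonica-side accessions lay higher. The difference was -0.88 (95% interval -1.36 to -0.40; limma, adjusted p = 0.308), and it passed without IRAT109 (-1.12, adjusted p = 0.00838). MYB4 changed by 2.54 ± 0.26 and 2.96 ± 0.23, with a difference of -0.42 (limma, adjusted p = 0.7). Of the 19 measured members of a list of other cold and stress factors, 7 rose and 3 fell in indica, and 8 rose and 4 fell on the japonica side. The median difference was -0.07, and 1 member, NAC45, passed. WRKY71, a WRKY factor, rose by 2.53 ± 0.28 and 2.57 ± 0.59 (difference -0.03, 95% interval -0.60 to 0.53).

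Of 13 measured JAZ repressors, which hold back the jasmonate response, 6 rose on both sides, while 2 fell in indica and 1 on the japonica side. TIFY11B changed by 3.92 ± 0.34 in indica and 3.76 ± 0.20 on the japonica side (difference 0.15, 95% interval -0.21 to 0.51; limma, adjusted p = 0.979). TIFY11A changed by 3.29 ± 0.69 and 3.57 ± 0.71, JAZ12 by 1.80 ± 0.63 and 1.77 ± 0.38, and JAZ13 by 2.82 ± 0.86 and 3.36 ± 0.73. Their differences were -0.28, 0.03 and -0.53, and the accession values overlapped for each. Among 25 measured genes for JAZ proteins or jasmonate synthesis, 8 rose and 5 fell in indica, and 8 rose and 4 fell on the japonica side. None passed the test of the difference (limma), with 1 higher and 3 lower in indica at an unadjusted p under 0.05, beside 2.18% and 4.99% of all genes. ABA8OX1, which breaks down abscisic acid, rose by 3.76 ± 0.31 in indica and 4.28 ± 0.47 on the japonica side (difference -0.53, 95% interval -1.02 to -0.03; limma, adjusted p = 0.799).

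**Figure D4:**
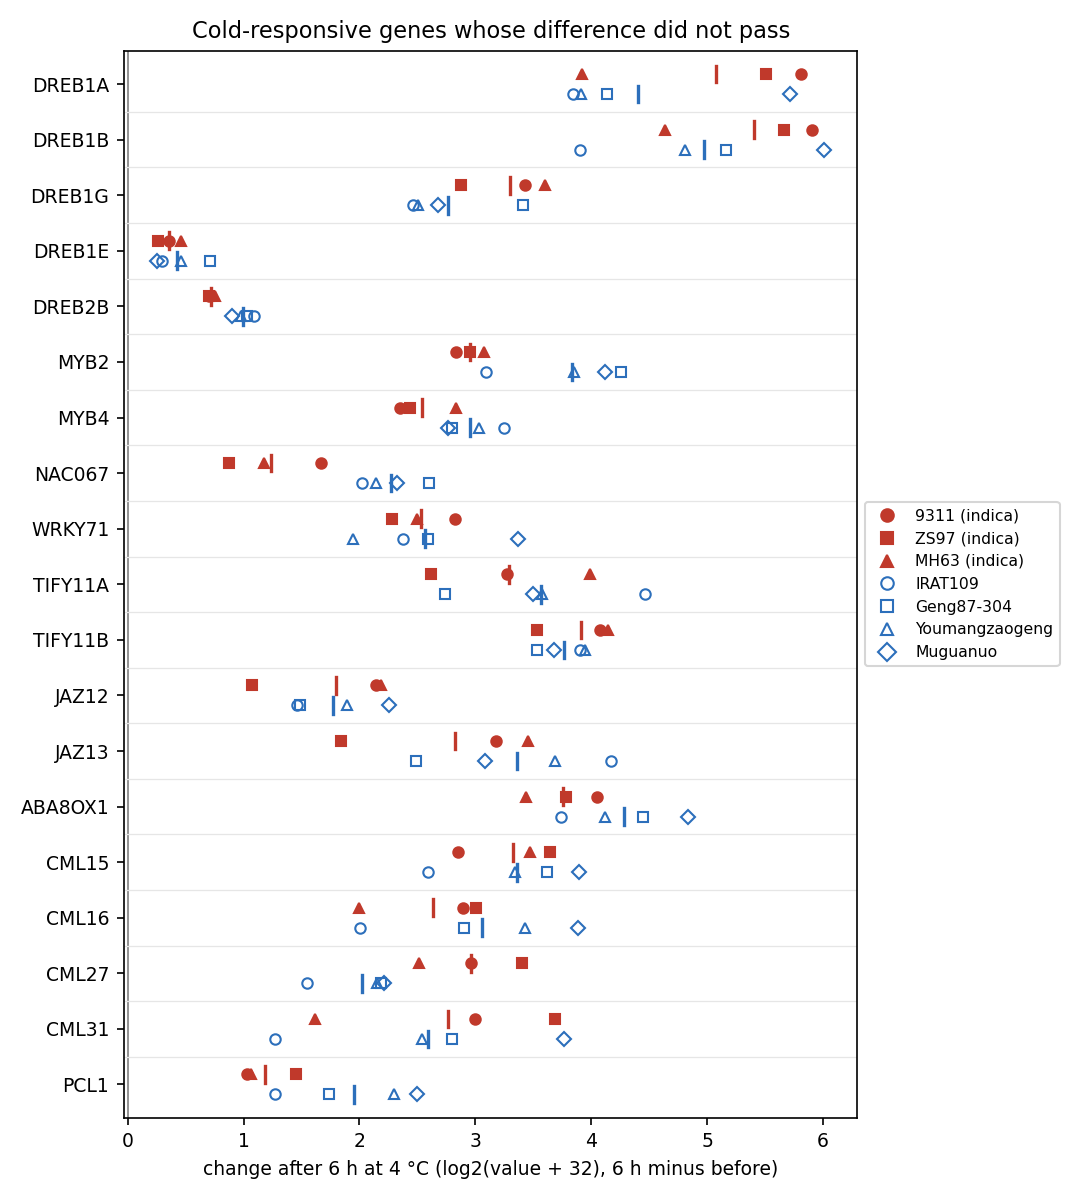
Log2 change after 6 h at 4 °C for 19 cold-responsive genes whose difference did not pass, drawn as for the genes that passed. Accession values of the sides overlap for DREB1A, DREB1B, the JAZ genes and WRKY71. MYB2, NAC067, DREB2B and CML27 show no overlap.

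Among the other calmodulin-like sensors no difference passed. CML27 changed by 2.96, 3.40 and 2.52 in indica and by 1.55, 2.18, 2.15 and 2.21 on the japonica side. All indica changes were the higher, and the difference of 0.94 (95% interval 0.48 to 1.39) did not pass (limma, adjusted p = 0.193). CML15 rose by 3.32 ± 0.42 and 3.36 ± 0.56, CML16 by 2.63 ± 0.55 and 3.06 ± 0.80, and CML31 by 2.77 ± 1.05 and 2.59 ± 1.03, each with overlapping values. Of 26 measured calmodulins and sensors, 6 rose and 1 fell in indica and 8 rose on the japonica side, with a median difference of -0.04. The list has 4 members lower in indica at an unadjusted p under 0.05 (CML14, CML4, CML20 and CML11) and 1 higher (CML27), with 4.99% and 2.18% over all genes. CML4, CML20 and CML11 had differences of -0.35, -0.35 and -0.33 (limma, adjusted p = 0.723, 0.731 and 0.794). The protein kinases CIPK5 and CIPK6, which act with calcium sensors of the CBL type, fell on both sides, by 1.71 ± 0.32 and 1.02 ± 0.19 in indica and by 1.88 ± 0.20 and 1.26 ± 0.23 on the japonica side. The calcium-dependent kinase CPK7 fell by 0.61 ± 0.11 in indica and 0.27 ± 0.06 on the japonica side, with no overlap, and its difference of -0.34 did not pass (limma, adjusted p = 0.562).

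Among clock genes and dehydrins no member passed (limma), and 2 and 4 members were lower in indica at an unadjusted p under 0.05, beside 4.99% of all genes. All 7 measured clock genes had the lower mean change in indica, against 10429 of 17905 genes, with a median difference of -0.21; for GI the sign turned without 9311 (0.11). PCL1, a MYB-type clock component, rose by 1.19 ± 0.24 in indica and 1.95 ± 0.56 on the japonica side (difference -0.77, 95% interval -1.28 to -0.25; limma, adjusted p = 0.531). PRR95 and GI, also of the clock, had changes of 0.31 ± 0.25 and 0.34 ± 0.32 in indica, neither passing, and rose by 0.59 ± 0.33 and 0.41 ± 0.20 on the japonica side. The 9311 array at 6 h was low for these genes, with a median change of -0.03 over the list against 0.36 to 0.53 in all other accessions. Without warm arrays at 6 h, cold and time of day cannot be told apart for the clock genes. Of 8 LEA proteins and dehydrins, which protect cells that lose water, 6 had the lower change in indica, with a median difference of -0.25. LIP9, a dehydrin, had changes of 0.00, 0.13 and -0.04 in indica and rose by 0.39, 0.39, 0.42 and 0.27 on the japonica side. The groups did not overlap, and the difference of -0.34 did not pass (limma, adjusted p = 0.617). LEA19, RAB16B and RAB21 had their lowest changes in 9311, at -1.01, -0.75 and -1.01.

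Genes that fell included aquaporins, which conduct water through membranes. Of 25 measured, 7 fell in indica and 3 on the japonica side, beside 11.4% and 14.3% of all genes. None passed the test of the difference, and 4 were lower in indica at an unadjusted p under 0.05 (limma), beside 4.99% of all genes. The median difference was -0.10. PIP2-5 fell in indica by 1.94, 0.67 and 1.42, and had changes of -0.49, -0.72, -0.63 and -0.03 on the japonica side. ZS97 lay among the japonica-side accessions, and the difference was -0.88 (95% interval -1.42 to -0.33; limma, adjusted p = 0.432). PIP2-4 changed by -0.89 ± 0.26 and -0.31 ± 0.31 and PIP2-6 by -0.59 ± 0.45 and -0.29 ± 0.25. The ethylene receptor genes ETR2 and ETR3 fell by 0.87 ± 0.41 and 0.51 ± 0.31 in indica and had changes of -0.27 ± 0.16 and -0.10 ± 0.18 on the japonica side (differences -0.60 and -0.41; limma, adjusted p = 0.4 and 0.716). Of 26 expansins and xyloglucan enzymes, which loosen cell walls, 4 fell in indica and 8 on the japonica side. The expansins EXPB4 and EXPB7 fell by 1.41 ± 0.05 and 1.49 ± 0.07 in indica and by 1.85 ± 0.58 and 1.77 ± 0.22 on the japonica side. The homeobox gene HOX4 fell by 1.29 ± 0.08 in indica and 1.51 ± 0.44 on the japonica side, where the homeobox list of 25 had 6 that fell on each side. The sugar transporter SWEET1b fell by 1.38 ± 0.23 in indica and 1.14 ± 0.25 on the japonica side.

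No gene of the other defence, heat and hormone lists passed the test of the difference (limma), and the larger single differences are given here. CHT11, a chitinase, fell in indica by 0.53, 0.76 and 0.23 and had changes of 0.03, 0.22, 0.21 and 0.29 on the japonica side, a difference of -0.70 (95% interval -0.99 to -0.40; limma, adjusted p = 0.102). GSTU6, a glutathione S-transferase, had a change of 0.15 ± 0.17 in indica and rose by 0.56 ± 0.11 on the japonica side. IAA24, an auxin response repressor, fell by 0.79 ± 0.12 and 0.43 ± 0.14. HSF03, a heat stress factor, rose by 0.87 ± 0.15 in indica and 1.39 ± 0.35 on the japonica side, and its difference of -0.52 (limma, adjusted p = 0.513) passed without IRAT109 (-0.68, adjusted p = 0.049). PP2C68, a phosphatase that acts negatively in abscisic acid signalling, fell by 1.32 ± 0.38 and 0.87 ± 0.21 (difference -0.45; limma, adjusted p = 0.66). RBCS, the small subunit of Rubisco, had a change of -0.17 ± 0.07 in indica and rose by 0.46 ± 0.38 on the japonica side (difference -0.62; limma, adjusted p = 0.39). Across the 33 lists, the members that passed were TPP1, CML14 and NAC45, the last in both the NAC list and that of other cold and stress factors.

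**Figure D5:**
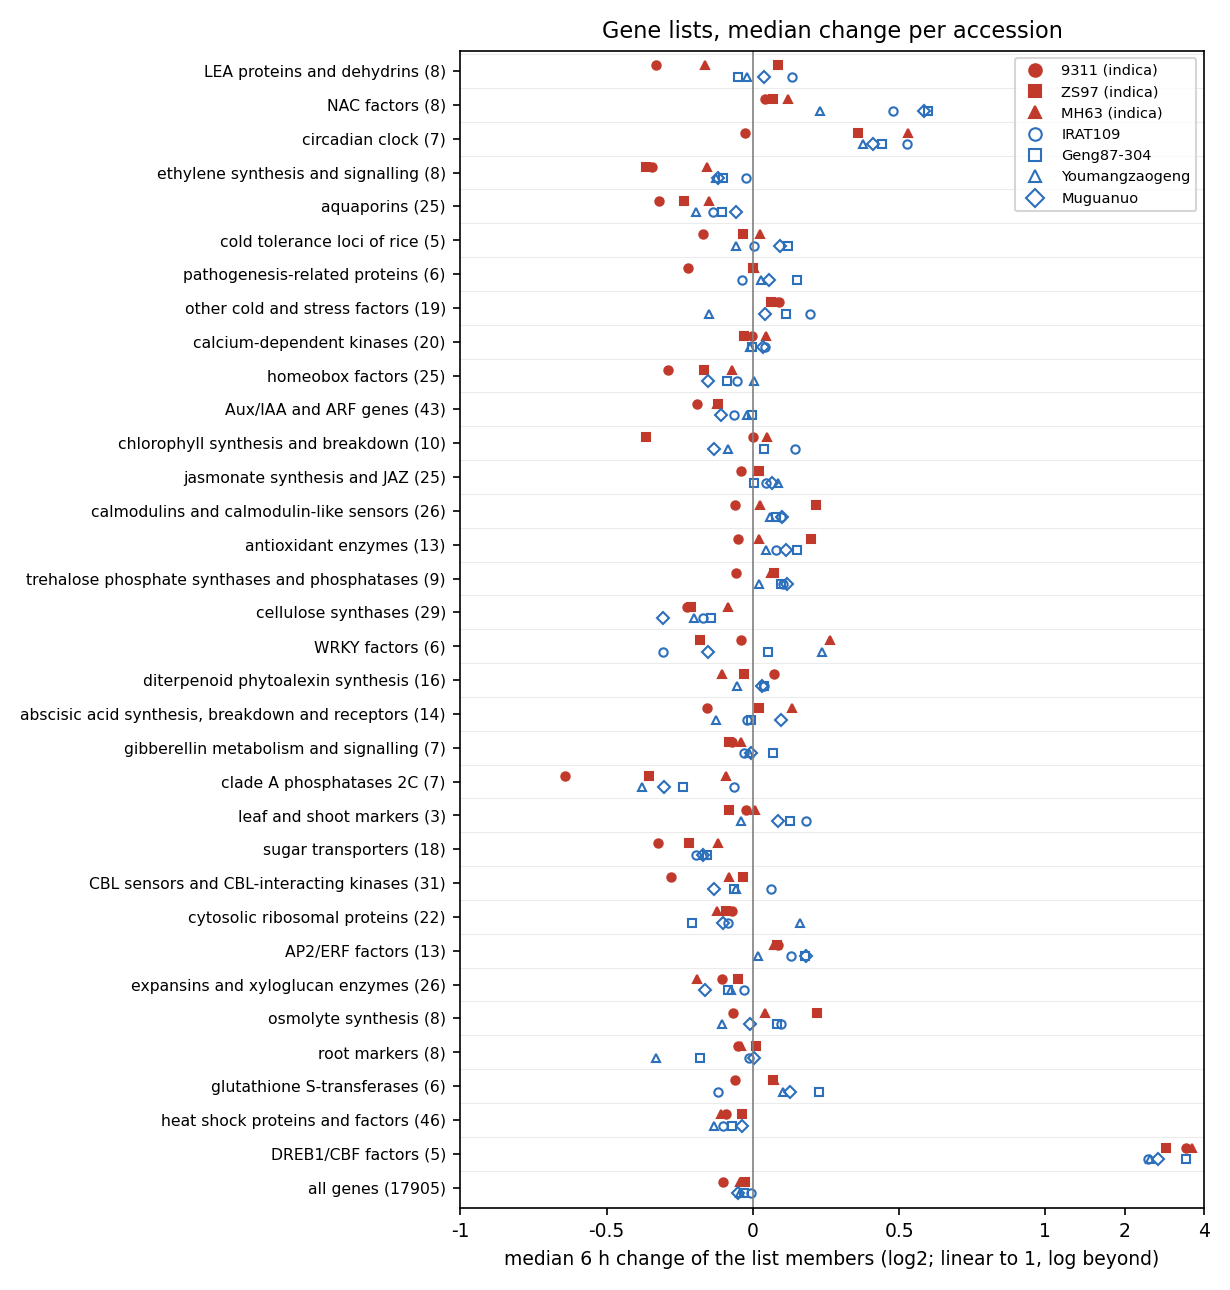
Median log2 change after 6 h at 4 °C of the measured members of each gene list (number in brackets), 1 point per accession, with indica (filled) above japonica-side (open). Lists are ordered by the median difference, with all genes at the bottom. Most lists lie within 0.5 of 0 and overlap, the DREB1 factors lie above 2 in every accession, and 9311 has the lowest clock median (-0.03).

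Many of the probe sets that passed were dim on at least 1 side, as were many of all those tested. Of the 63 probe sets, 40 were not above background on any of the 6 indica arrays, beside 37699 of all 57258. On the 8 japonica-side arrays this held for 13, beside 34910 of all. Above background on at least 1 array of each side were 19, beside 18901 of all, and 16 of the 19 had the lower change in indica. Of the 39 that passed on the japonica side alone, 35 were never above background in indica. Of all 2973 probe sets that changed on the japonica side alone, 1417 were never above it in indica. Before cold, 19 of the 63 (30.2%) read at least 2-fold lower in indica, against 1.66% of all probe sets, and 29 (46.0%) differed between the sides before cold by limma, against 3.1%. Levels of different accessions on this array depend on how each accession's sequence matches the probes, and a probe set that does not bind a transcript shows no change. What part this has in the differences was not tested. Among the 19 that were above background on both sides, 1 (5.26%) read at least 2-fold lower in indica before cold, against 2.17% of the 18901 such probe sets. Of the 19, 3 (15.8%) differed between the sides before cold by limma, against 3.23%. These 19 include TPP1, ACA7, LOC4330256, LOC4332399, LOC4347266, LOC4341476 and LOC4346183.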

How the data were processed

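Affymetrix arrays, 1 per accession and time, were used. The deposited table holds 1 intensity per probe set and array, linear as judged from its range. How the authors summarised and scaled the arrays, and with which software, is not stated in the labels or the table. Control probe sets (123 of 57381) were left out. The deposited intensities were taken to log2(value + 32), which understates changes of dim genes, with no further normalization. The annotation gave 1 gene for 22436 of 57258 probe sets, several for 95 and none for 34727. Names came from the RefSeq table of assembly ASM3414082v1, and 2457 of 17905 genes have one. Where a gene had several probe sets, that of highest mean on the 14 arrays stood for it, and those marked _x_at or _s_at were used only for want of another.

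The 14 arrays were fitted in limma 3.58.1 (R 4.3.3; lmFit, contrasts.fit, and eBayes with a variance trend), with accession as a block and a 6 h term for each side, leaving 5 residual degrees of freedom. The block follows from the labels, which give each accession both times. Deviations from the side and time means correlated between 0.677 and 0.872 for the arrays of an accession. Benjamini-Hochberg adjustment ran over all 57258 probe sets, with a threshold of 0.05. Errors are SDs over accessions, and 95% intervals are those of the fit. The script was tested on simulated data. Tables and plots used Python 3.11.15, numpy 2.4.6, pandas 2.3.3 and scipy 1.17.1.

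Named genes were, by rule, those that passed the difference without overlap (up to 15 per direction), further named genes by unadjusted p with a difference of at least 1, up to 5 locus-only genes per direction, list members that passed with up to 4 others of large change, and genes with opposite changes. Of 398 list terms 186 matched. A few symbols stand for more than 1 gene, as TPP2 does among the trehalose genes. The members and lists were chosen with earlier results of these data known. Alternatives covered the offset (16 and 64), quantile normalization, equal medians, a filter on dim probe sets, array weights, no variance trend, no replicate block, all 24 arrays, Lixingeng on the japonica side, each accession left out, and 20 arrays, the last added after seeing the data.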

Additional observations from a re-analysis of the deposited data

Results flagged for a closer look

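The 6 h change differed between indica and the japonica side (limma, adjusted p under 0.05) for 13 genes chosen by the rule for named genes, out of 31 genes with a probe set that passed. Differences, indica minus japonica-side, were -1.82 for TPP1, -1.31 for NAC45, -0.96 for ACA7 and -0.65 for CML14. They were 1.38 for LOC4330256, 0.59 for LOC4332076 and 0.55 for LOC4349105. For the other locus-only genes they were -1.33 for LOC4332399, -1.29 for LOC4347266, -1.17 for LOC4345525, -1.05 for LOC4325140, -1.04 for LOC4341476 and -0.89 for LOC4346183.

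In 6 of 62 genes examined, 1 of the 4 japonica-side accessions stood far from the other 3. Chance gives about 1 in 20 independent groups. The 62 genes were chosen and share the same arrays, and no share over all probe sets was taken. The 6 are therefore a description and not an excess over chance. Muguanuo stood apart with 1.91 for ACA7, the lowest, and with 5.72 for DREB1A, the highest. IRAT109 stood apart with 1.55 for CML27, the lowest, and with 1.08 for PRR95, the highest. Youmangzaogeng stood apart with 0.11 for GI, the lowest, and with -0.23 for IAA24, the highest. The ACA7 value of Muguanuo was still above all 3 indica values.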

How the results depend on the processing

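The difference passed for 63 probe sets, with between 52 and 70 under offsets of 16 and 64, quantile normalization, equal medians and array weights. It passed for 22 with the filter on dim probe sets (17394 tested), 31 with no variance trend and 13 with Lixingeng on the japonica side. With no replicate block it passed for 1, and with all 24 arrays for 3; none of the 13 named genes passed in either. The 20 arrays without the mixed pair and Lixingeng, added after seeing the data, gave 43, of which 37 were among the 63. Leaving out 1 accession gave 11 (9311) to 132 (IRAT109). For the change in indica (4066), the count was 619 with no replicate block, 2232 with all 24 arrays, 2352 with Lixingeng, and 2470 (9311) to 4108 with 1 accession left out. For the japonica side (5984), it was 1346 with no replicate block, 3834 with all 24 arrays, 3832 with Lixingeng, and 4079 to 6087 with 1 accession left out. Of the 13 named genes that passed, 9 lost the call with Lixingeng on the japonica side, 9 with the 20 arrays and 7 with no variance trend. Equal medians lost 3, offset 16 lost 2, and offset 64, quantile normalization and array weights lost 1 each. The filter on dim probe sets kept 9 of the 13, and of these 6 passed and 3 lost the call. Leaving out 1 accession lost between 1 (IRAT109) and 11 (9311) of the 13 calls. None of the 13 changed sign in these settings, and NAC067 passed with array weights (adjusted p = 0.0492). Among genes that did not pass, signs turned with Lixingeng on the japonica side for DREB1E (0.0237), DREB2B (0.0092), MYB4 (0.25), WRKY71 (0.56), TIFY11A (0.59), JAZ13 (0.26), ABA8OX1 (0.46), CML15 (0.70) and CML16 (0.35). They also turned for WRKY71 with quantile normalization (0.0049), JAZ12 with offset 64 (-0.0242), CML15 with offset 16 (0.0359) and CML31 with array weights (-0.0653). With 1 accession left out, the difference ran from -0.13 to 0.0238 for DREB1E, -0.24 to 0.23 for WRKY71, -0.63 to 0.0598 for TIFY11A, -0.16 to 0.39 for JAZ12, -0.30 to 0.20 for CML15, -0.28 to 0.75 for CML31 and -0.19 to 0.11 for GI. Beyond fewer samples or probe sets tested, the cause was not tested. Precision is limited by having a single array for each accession at each time, and 44 of the 63 probe sets were never above background on at least 1 side.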
